A study of Mus musculus with 18 samples.

Results

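The glycine tRNAs of mouse brain were followed through intact tRNA, tRNA held in ribosomes and tRNA fragments, with and without the tRNA methyltransferase FTSJ1. They were taken as every entry of the deposited count table listed under glycine, which gave 10 of its 147 entries. Grouped by anticodon they formed 4 of the 54 anticodon families: Gly-GCC with 3 entries, Gly-CCC with 3, Gly-TCC with 2 and Gly-ACC with 2. Entries of 1 family are counted here as separate isodecoders, tRNAs with the same anticodon and a different body, and carry the table's own numbers, as in Gly13-TCC. The RefSeq gene table of the GRCm38.p6 assembly names 14 mouse genes for Gly-GCC, 7 for Gly-TCC, 6 for Gly-CCC and 1 for Gly-ACC, 28 in all.

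Glycine tRNAs read the codons that begin with GG. The GCC anticodon reads those ending in C or U, the CCC anticodon reads GGG, and the TCC anticodon carries a modified wobble uridine and reads GGA and, by wobble, GGG. Gly-GCC is a substrate of DNMT2, which methylates a cytosine at the edge of the anticodon loop and is reported to shield the loop from cleavage. Gly-GCC and Gly-CCC are also among the most often reported sources of the fragments left when a ribonuclease such as angiogenin cuts the anticodon loop. FTSJ1 itself adds ribose methyl groups to the anticodon loop of a set of tRNAs.

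The groups were brains of Ftsj1 KO mice and of WT mice, 3 mice each, all male, of the C57BL/6 strain, aged 8 weeks and given no treatment. How the KO allele was made is not given in the sources used here, and Ftsj1 mRNA lies outside these libraries, so the knockout was not checked. Each mouse gave a total tRNA library, a ribosome-contained tRNA library and a fragment library. Depth was 1505291 to 2000422 reads in total tRNA, 406764 to 672127 in ribosome-contained tRNA and 85323 to 151056 in fragments. Values are percentages of the tRNA reads of a library, with a read standing for 1 tRNA or fragment and no division by length. They are relative to the other tRNAs of that library, and in bulk tissue fewer cells of a type and less tRNA per cell cannot be told apart. The labels number the mice and say no more about their origin, and p-values measure the spread among these 3 mice of a genotype.

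Glycine tRNAs took a larger share of the ribosome-contained and fragment reads than of the total tRNA reads in both genotypes. All glycine reads together made up 12.9% ± 0.0922 of fragments, 8.22% ± 0.225 of ribosome-contained tRNA and 4.55% ± 0.25 of total tRNA in KO brain. In WT brain the values were 13.7% ± 0.703 of fragments, 9.31% ± 0.307 of ribosome-contained tRNA and 4.41% ± 0.0433 of total tRNA (SD, n = 3 mice per genotype throughout). The glycine share of ribosome-contained tRNA was 8.18%, 8.02% and 8.46% in KO mice 1 to 3, against 9.03%, 9.64% and 9.25% in WT mice 1 to 3. Every KO library thus lay below every WT library, with an exact two-sided permutation p of 0.1, the smallest that 3 mice against 3 can give. In total tRNA (exact permutation p = 0.4) and in fragments (exact permutation p = 0.2) the genotypes overlapped.

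**Figure D1:**
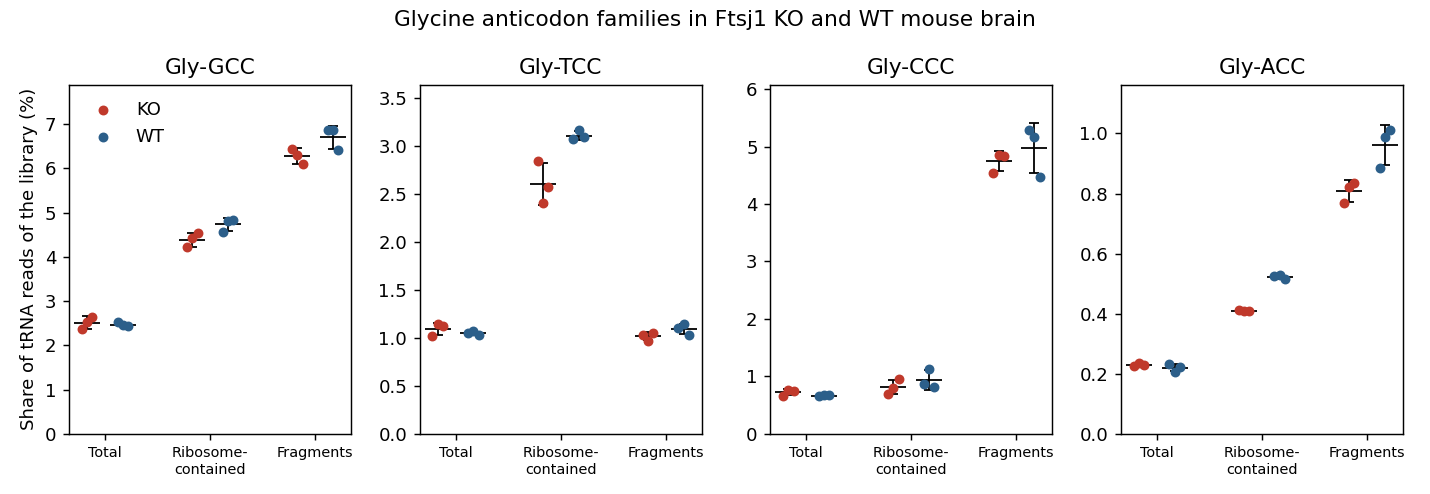
Share of the tRNA reads of a library (%) for the 4 glycine anticodon families in total, ribosome-contained and fragment libraries of KO (red) and WT (blue) brain. Points are mice, black bars the mean ± SD of 3 mice, and each panel has its own scale; Gly-GCC and Gly-CCC are high in fragments, Gly-TCC is high in ribosome-contained tRNA, and the KO points of Gly-ACC lie under the WT points there and in fragments.

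Gly-GCC, the DNMT2 substrate, was the most abundant glycine family in every library. Its share of total tRNA was 2.36%, 2.52% and 2.65% in KO mice, against 2.52%, 2.45% and 2.44% in WT mice, and the genotypes overlapped. In ribosome-contained tRNA it reached 4.22%, 4.42% and 4.53% in KO mice, against 4.57%, 4.82% and 4.83% in WT mice. There the KO libraries lay just under the WT libraries, with 4.53% as the highest KO value and 4.57% as the lowest WT value. In fragments Gly-GCC took 6.45%, 6.30% and 6.10% in KO mice, against 6.86%, 6.86% and 6.41% in WT mice. By mean share it ranked 14 of 54 families in total tRNA in both genotypes, 7 in KO and 5 in WT ribosome-contained tRNA, and 5 in KO and 4 in WT fragments.

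Gly-CCC was a minor tRNA of the intact pool and a major one among fragments. It took 4.54%, 4.86% and 4.83% of fragment reads in KO mice, against 5.28%, 5.17% and 4.47% in WT mice. Its share of total tRNA was 0.663%, 0.756% and 0.743% in KO mice, against 0.651%, 0.669% and 0.671% in WT mice. The 2 forms were thus far apart in every mouse, while the genotypes overlapped in each. In total tRNA, where same-numbered libraries deviated together, the KO share was the higher in all 3 numbered pairs, and with the number as a block the log2 fold change was 0.08 (adjusted p = 0.77 in edgeR). Its rank by mean share was 7 of 54 in KO fragments and 6 in WT fragments, against 37 in total tRNA of either genotype. In ribosome-contained tRNA its spread between mice relative to its mean was the widest of the 4 families, with 0.699%, 0.794% and 0.947% in KO mice and 0.866%, 1.13% and 0.811% in WT mice.

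Gly-TCC, the family with the wobble uridine, showed the other pattern. Its share of ribosome-contained tRNA was 2.84%, 2.40% and 2.57% in KO mice, against 3.07%, 3.16% and 3.09% in WT mice, so the genotypes did not overlap (exact permutation p = 0.1). In fragments it took 1.02% ± 0.0422 in KO brain and 1.09% ± 0.0548 in WT brain. These values were close to its share of total tRNA, 1.09% ± 0.0609 in KO and 1.05% ± 0.0174 in WT.

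Gly-ACC was the scarcest family and the one that was lower in KO brain in ribosome-contained tRNA and in fragments. Its share of ribosome-contained tRNA was 0.412%, 0.408% and 0.409% in KO mice, against 0.525%, 0.528% and 0.515% in WT mice. In fragments it took 0.767%, 0.822% and 0.836% in KO mice, against 0.884%, 0.989% and 1.01% in WT mice. The KO values were lower without overlap in both forms (exact permutation p = 0.1 each). In total tRNA its share was 0.230% ± 0.00558 in KO and 0.221% ± 0.0131 in WT, with overlap (exact permutation p = 0.4).

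Within the glycine reads, the parts of Gly-CCC and Gly-TCC depended on the form. Gly-GCC held the largest part in each form, 48.9% ± 1.42 of fragments, 53.4% ± 1.73 of ribosome-contained tRNA and 55.1% ± 0.865 of total tRNA in KO brain. The WT values for Gly-GCC were 48.9% ± 0.643, 51.0% ± 1.16 and 56.1% ± 0.477 in the same order of forms. Gly-CCC and Gly-TCC exchanged places. Gly-CCC held 36.9% ± 1.2 of glycine fragment reads in KO and 36.2% ± 1.44 in WT, but 8.55%, 9.90% and 11.2% of ribosome-contained glycine reads in KO mice and 9.58%, 11.7% and 8.77% in WT mice. Gly-TCC held 7.91% ± 0.379 of glycine fragment reads in KO and 7.96% ± 0.136 in WT, but 31.7% ± 2.67 of ribosome-contained glycine reads in KO and 33.4% ± 0.576 in WT.

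Among the within-glycine shares of all 4 families in every form, only 2 did not overlap between the genotypes. Gly-CCC held 15.8% ± 0.376 of the glycine reads of total tRNA in KO and 15.1% ± 0.397 in WT. Gly-ACC held 4.99% ± 0.137 of ribosome-contained glycine reads in KO and 5.62% ± 0.175 in WT. Each had an exact permutation p of 0.1, not adjusted for the number of shares compared. Without any effect a share would lie apart with that same probability, so the count of 2 is not read as a genotype effect. When edgeR's quasi-likelihood test was run with the glycine reads as library size, no glycine family passed an adjusted p of 0.05 between KO and WT in any form, and none had an unadjusted p under 0.05. The share of all families called in those fits was 2.04% in total tRNA, 22.4% in ribosome-contained tRNA and 26.1% in fragments. The smallest adjusted p in that edgeR fit was 0.18, for Gly-ACC in ribosome-contained tRNA at a log2 fold change of -0.17 (SE 0.09). In glycine fragments none of the differences was beyond the spread of these mice, at log2 fold changes of 0.00 for Gly-GCC, 0.03 for Gly-CCC, -0.01 for Gly-TCC and -0.16 for Gly-ACC.

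**Figure D2:**
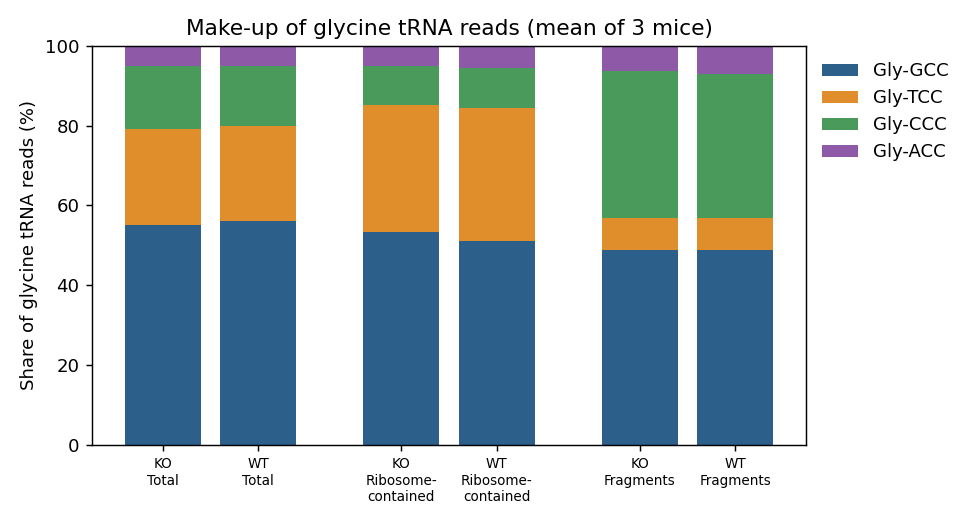
Make-up of the glycine tRNA reads (%) by anticodon family in KO and WT libraries of the 3 forms, as the mean of 3 mice. Gly-CCC takes 36.9% of glycine fragments in KO and 36.2% in WT, and Gly-TCC takes 31.7% of ribosome-contained glycine reads in KO and 33.4% in WT.

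The forms were compared within each mouse as the ratio of a family's share in ribosome-contained tRNA or fragments to its share in total tRNA. Among the 47 families with a mean of at least 100 reads in total tRNA, Gly-CCC had the highest fragment ratio and Gly-TCC the highest ribosome ratio in both genotypes. The fragment ratio of Gly-CCC was 6.85, 6.43 and 6.49 in KO mice, against 8.11, 7.74 and 6.66 in WT mice. The ribosome ratio of Gly-TCC was 2.77, 2.10 and 2.31 in KO mice, against 2.93, 2.96 and 2.99 in WT mice. Gly-ACC ranked 3 of 47 by fragment ratio in both genotypes, and Gly-GCC ranked 6 in KO and 7 in WT. For Gly-TCC the fragment ratio was close to 1, at 0.933 ± 0.077 in KO and 1.04 ± 0.036 in WT.

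The same contrast of forms passed the test in WT brain for all 4 families. In the edgeR fit of fragment against total libraries, Gly-CCC was higher in fragments by a log2 fold change of 3.18 (SE 0.08, adjusted p = 1.5e-15), Gly-ACC by 2.39 (SE 0.06), Gly-GCC by 1.71 (SE 0.06) and Gly-TCC by 0.33 (SE 0.06, adjusted p = 0.00016). The median log2 fold change of the 49 families tested was -0.46, and 36.7% of them were higher in fragments, so the scale depends on how the libraries are set to each other. The Gly-TCC call was lost with total reads as the scale and with scaling within each library type. The order of the 4 families within glycine does not rest on that choice. Relative to glycine reads alone, Gly-CCC was higher by 1.26 (SE 0.06) and Gly-ACC by 0.49 (SE 0.08), while Gly-GCC fell by 0.20 (SE 0.05) and Gly-TCC by 1.58 (SE 0.06), each past the edgeR threshold, where 89.8% of families were called.

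In ribosome-contained against total tRNA of WT brain the edgeR log2 fold changes were 1.52 (SE 0.09) for Gly-TCC, 1.19 (SE 0.11) for Gly-ACC, 0.89 (SE 0.10) for Gly-GCC and 0.44 (SE 0.11) for Gly-CCC. All 4 passed, against 37.3% of the 51 families tested that were higher, and a median of 0.06. The Gly-CCC value had an adjusted p of 0.00032 and lost its call when WT mouse 2 was left out (adjusted p = 0.21). Relative to glycine reads alone, Gly-TCC was higher in ribosome-contained tRNA by 0.49 (SE 0.07) and Gly-CCC lower, with a log2 fold change of -0.59 (SE 0.11). They were the only glycine families past the threshold there, where 86.3% of all families were called.

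**Figure D3:**
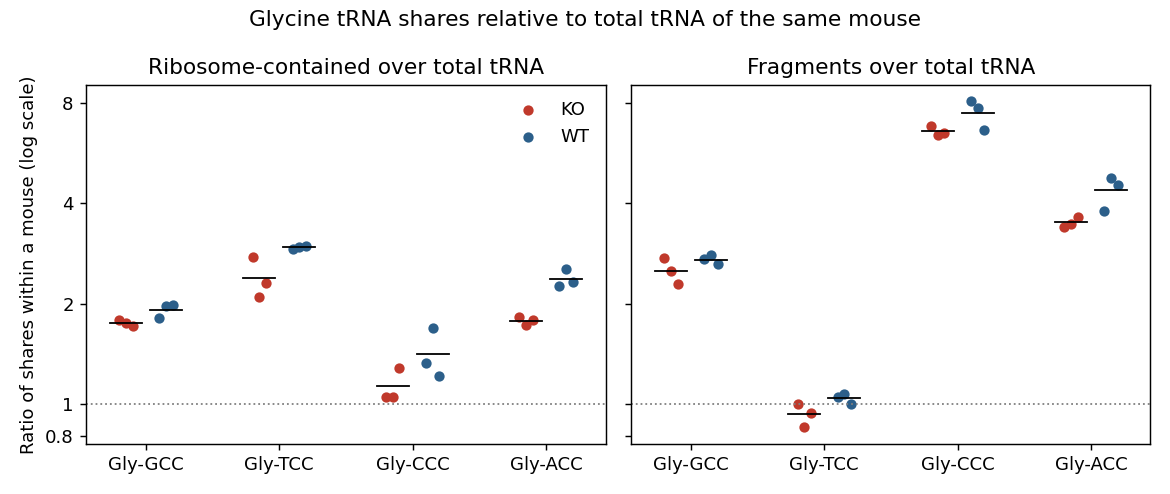
Ratio of a family's share in ribosome-contained tRNA (left) or fragments (right) to its share in total tRNA of the same mouse, on a log scale, for KO (red) and WT (blue). Points are mice, bars are means of 3, and the dotted line marks equal shares; Gly-TCC is highest in the left panel, and on the right Gly-CCC is highest with Gly-TCC close to 1.

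Of the lists to which these families belong, the 3 DNMT2 substrates had 2 families higher and 1 lower in WT fragments than in total tRNA, with a median log2 fold change of 0.43. The 9 families often reported as cleaved had 5 higher and 3 lower with a median of 0.43, and those with a wobble uridine had 4 higher and 8 lower of 13 with a median of -0.97. Over all families 36.7% were higher and 49.0% lower, with a median of -0.46. In WT ribosome-contained against total tRNA, 2 of the 3 DNMT2 substrates were higher and 0 lower (median 0.70), 4 of the often cleaved families were higher and 3 lower (median -0.09), and 3 of the wobble uridine families were higher and 5 lower (median -0.09), against 37.3% higher and 37.3% lower of all families. Between KO and WT, none of the 3 DNMT2 substrates passed in any form. In KO fragments the median was -0.04 for the DNMT2 list and for all families alike, and -0.09 for the often cleaved list. In KO ribosome-contained tRNA 2 of the 13 wobble uridine families rose and 2 fell, with Gly-TCC among those that fell, against 10.2% of all families that rose and 12.2% that fell.

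In total tRNA none of the 4 glycine families differed between KO and WT in the edgeR test, where 8.16% of the 49 families were called. None had an unadjusted p under 0.05, and DESeq2 and limma-voom called 0 as well. The log2 fold changes of KO over WT were -0.01 for Gly-GCC, 0.03 for Gly-TCC, 0.08 for Gly-CCC and 0.03 for Gly-ACC, with standard errors of 0.06 to 0.07.

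In ribosome-contained tRNA 2 families fell in KO brain, against 12.2% of all 49 families tested that fell. Gly-ACC, at the per-mouse shares given above, fell 1.27-fold, with a log2 fold change of -0.35 (SE 0.07, adjusted p = 0.01 in edgeR). Gly-TCC fell 1.19-fold, with a log2 fold change of -0.25 (SE 0.07, adjusted p = 0.036 in edgeR). Gly-CCC had -0.19 (SE 0.15) and Gly-GCC -0.11 (SE 0.08), neither past the threshold. The Gly-ACC call was kept in 9 of 14 alternatives, and was lost when any of KO mouse 2 and WT mice 1 to 3 was left out. The Gly-TCC call was kept in 6 of 14, and was lost when any of KO mice 2 and 3 and WT mice 1 to 3 was left out, at adjusted p of up to 0.17 in edgeR. Counted as the single entry Gly1-ACC, which holds 99.9% of the family's ribosome-contained reads, the fall was -0.30 (SE 0.13, adjusted p = 0.18) and did not pass.

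In fragments 1 family fell, against 6.52% of the 46 families tested that fell. Gly-ACC had a log2 fold change of -0.25 (SE 0.09, adjusted p = 0.032 in edgeR), a fall of 1.19-fold. That call was kept in 5 of 14 alternatives, and leaving out any of KO mice 1 to 3 or WT mouse 3 ended it, at adjusted p of up to 0.17. The entry Gly1-ACC gave -0.26 (SE 0.08, adjusted p = 0.055). The other families had -0.10 (Gly-GCC, SE 0.06), -0.10 (Gly-TCC, SE 0.08) and -0.07 (Gly-CCC, SE 0.06), and none passed.

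**Figure D4:**
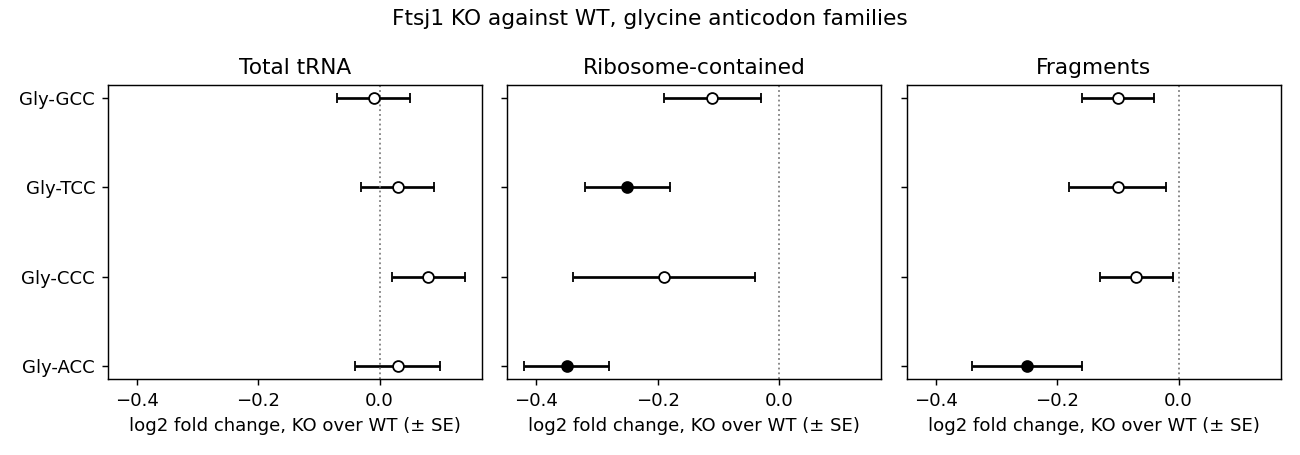
Log2 fold change of KO over WT (± SE) for the 4 glycine families in total tRNA, ribosome-contained tRNA and fragments, from edgeR fits over all families. Filled points have an adjusted p under 0.05: Gly-ACC (-0.35) and Gly-TCC (-0.25) in ribosome-contained tRNA and Gly-ACC (-0.25) in fragments.

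Whether the KO effect differed between forms was tested as its own term. The effect in fragments was lower than the effect in total tRNA for Gly-ACC (log2 difference -0.40, SE 0.09, adjusted p = 0.0032 in edgeR), Gly-CCC (-0.28, SE 0.10, adjusted p = 0.048) and Gly-TCC (-0.25, SE 0.09, adjusted p = 0.048), and did not pass for Gly-GCC (-0.21, SE 0.08, adjusted p = 0.063). All families together had a median difference of -0.19, and 22.4% of the 49 tested were called lower, so most of the glycine values lie near the middle of all families. Measured from that median, the differences were -0.21 for Gly-ACC, -0.09 for Gly-CCC, -0.06 for Gly-TCC and -0.02 for Gly-GCC. With scaling within each library type the median moved to -0.03, and no glycine family passed. Dropping any of KO mouse 2 and WT mice 1 and 2 left 1 glycine family past the threshold. With the mouse as a block, since both libraries come from 1 animal, 1 family passed: Gly-ACC at -0.40 (adjusted p = 0.011), against an adjusted p of 0.061 for Gly-CCC and 0.08 for Gly-TCC. The per-mouse fragment ratio of Gly-ACC was 3.40, 3.47 and 3.65 in KO mice and 3.79, 4.78 and 4.55 in WT mice, without overlap. Counted as single entries, the most read of each family did not pass. The differences were -0.15 for Gly1-ACC (SE 0.12, adjusted p = 0.45 in edgeR), 0.04 for Gly3-CCC, 0.05 for Gly6-GCC and -0.05 for Gly12-TCC. In that fit the median of all entries was 0.06. Measured from it, Gly1-ACC lay at -0.21, the same as Gly-ACC from the median of families.

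For ribosome-contained against total tRNA no glycine family passed the test of the difference, where 0.0% of the 51 families tested were called. In that edgeR fit 1 glycine family had an unadjusted p under 0.05, while DESeq2 called 2 and limma-voom 0. The share of all families called by DESeq2 was not computed. Dropping any of KO mice 1 and 3 and WT mouse 1 brought the edgeR count to 2. The log2 differences were -0.35 (SE 0.15, adjusted p = 0.18) for Gly-ACC, -0.25 (SE 0.16) for Gly-CCC, -0.24 (SE 0.13, adjusted p = 0.24) for Gly-TCC and -0.06 (SE 0.14) for Gly-GCC. The ribosome ratio of Gly-ACC was 1.83, 1.73 and 1.79 in KO mice, against 2.26, 2.55 and 2.32 in WT mice. It did not overlap between genotypes, nor did those of Gly-TCC and Gly-GCC, and each had an exact permutation p of 0.1. The ratio of Gly-CCC overlapped. How many of all families lay apart in this ratio was not counted.

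Within the families, 1 entry carried most reads, and the share of the others depended on the form. Gly6-GCC held 98.6% of Gly-GCC fragment reads in KO and in WT, and 99.9% or more of the family in the other forms by mean. Gly1-ACC held 99.9% of its family in total and ribosome-contained tRNA, by mean in both genotypes, and all of it in fragments, and Gly2-ACC had 0 to 5 reads in each library. Gly2-ACC was at 0 in all fragment libraries, 0 of 698104 pooled reads, which allows a share of up to 0.00043% by counting error alone. Gly-CCC was the most mixed family in total tRNA, with Gly3-CCC at 78.7% ± 2.28 of its reads in KO and 83.0% ± 1.1 in WT, and Gly4-CCC at 17.9% ± 1.68 in KO and 14.8% ± 0.398 in WT.

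Gly13-TCC stood out among these entries by its form. It made up 31.1% ± 3.16 of Gly-TCC fragment reads in KO and 27.9% ± 0.866 in WT, against 0.740% ± 0.153 of the family's total tRNA reads in KO and 0.426% ± 0.0989 in WT. Its fragment libraries held 455, 320 and 460 reads in KO mice and 361, 264 and 298 in WT mice. Its total tRNA libraries, which were deeper, held 118, 133 and 182 reads in KO mice and 51, 71 and 84 in WT mice. The 2 entries of the family moved in opposite directions in WT fragments relative to total tRNA: Gly13-TCC was higher by a log2 fold change of 5.89 (SE 0.17, adjusted p = 7.8e-18 in edgeR), and Gly12-TCC was lower at -0.60 (SE 0.09, adjusted p = 3e-06), which is also the median of all entries. Reads that match both entries may have been placed by a rule that is not given in the sources used here, and its part in the difference was not tested.

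Of the remaining entries, all but Gly2-ACC, which was not tested, were also higher in WT fragments than in total tRNA. The 2 scarce Gly-GCC entries had log2 fold changes of 7.71 (Gly11-GCC, SE 0.41) and 5.71 (Gly10-GCC, SE 0.36) in edgeR, but they had 0 to 22 reads per total tRNA library and entered the fit through their fragment reads. Gly4-CCC (2.89, SE 0.08), Gly3-CCC (2.69, SE 0.09), Gly5-CCC (2.08, SE 0.27), Gly1-ACC (1.93, SE 0.08) and Gly6-GCC (1.22, SE 0.08) followed. Each of these was called, in a fit where 30.5% of the 105 entries tested were higher and 49.5% lower. That fit was scaled apart from the fit of families, so these values are not on the scale of the family values.

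In ribosome-contained against total tRNA of WT brain 40.7% of the 118 entries tested were higher and 39.8% lower. Gly10-GCC and Gly11-GCC, with few total tRNA reads, are not counted here. Gly1-ACC had a log2 fold change of 0.80 (SE 0.10) and Gly6-GCC of 0.49 (SE 0.10). Entries and families were scaled in separate fits, so these values are not on the scale of the family values. Relative to glycine reads, Gly1-ACC and Gly-ACC both had 0.17, and Gly6-GCC and Gly-GCC both -0.14. Gly12-TCC had a log2 fold change of 1.11 (SE 0.10) and Gly13-TCC of 1.85 (SE 0.27), so there both entries of the family were higher. Of the Gly-CCC entries, Gly4-CCC had 0.83 (SE 0.12) and Gly5-CCC 1.22 (SE 0.25). Gly3-CCC had -0.22 (SE 0.10, adjusted p = 0.048 in edgeR), a call kept in 8 of 15 alternatives. It was lost with DESeq2, with DESeq2 size factors, with TMM scaling without glycine, and without WT mouse 1 or WT mouse 3. The sign turned to 0.24 with total reads as the scale and to 0.12 with scaling within each library type, and its WT share was 0.650% ± 0.125 of ribosome-contained against 0.551% ± 0.00666 of total tRNA reads. Relative to glycine reads Gly3-CCC was also lower, at -0.84 (SE 0.10).

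Between the genotypes 3 scarce entries rose in KO total tRNA, while the most read entry of each family did not pass. Calls of higher level covered 9.9% of the 101 entries tested. Gly4-CCC had a share of 0.130%, 0.136% and 0.121% in KO mice, against 0.0961%, 0.0970% and 0.103% in WT mice. Its groups did not overlap, and edgeR gave a log2 fold change of 0.29 (SE 0.08) at an adjusted p of 0.007. Gly13-TCC had a share of 0.00590%, 0.00876% and 0.00979% in KO mice, against 0.00339%, 0.00462% and 0.00539% in WT mice. It too lay apart, at a log2 fold change of 0.76 (SE 0.23, adjusted p = 0.0088 in edgeR).

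Gly5-CCC had 446, 480 and 332 reads in total tRNA of KO mice, against 134, 208 and 307 reads in WT mice. As shares these were 0.0223%, 0.0316% and 0.0179% in KO and 0.00890%, 0.0135% and 0.0197% in WT, which overlap. The edgeR fit nevertheless called it, at 0.66 (SE 0.15) and an adjusted p of 0.00018. The major entries Gly3-CCC (-0.06), Gly12-TCC (-0.05), Gly6-GCC (-0.08) and Gly1-ACC (-0.04) had standard errors of 0.07 to 0.08. Gly10-GCC, with 21 to 22 reads in KO libraries and 5 to 20 in WT libraries, had 0.72 (SE 0.53, adjusted p = 0.36). Gly2-ACC and Gly11-GCC were under the filter on low counts, Gly11-GCC at 10 to 16 reads in KO and 0 to 5 in WT.

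**Figure D5:**
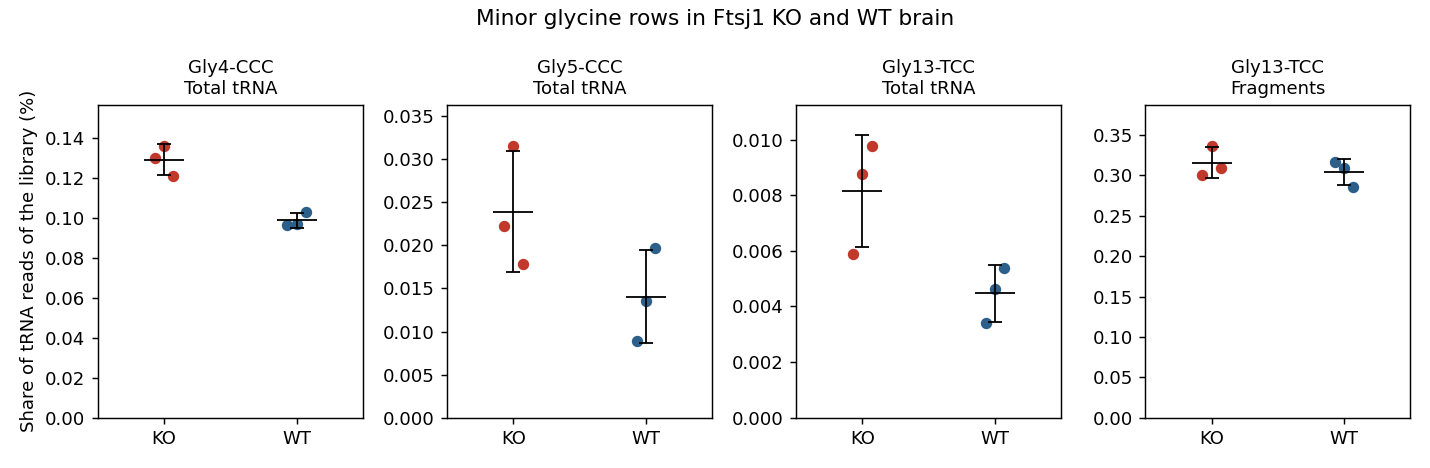
Share of the tRNA reads of a library (%) for Gly4-CCC, Gly5-CCC and Gly13-TCC in total tRNA, and for Gly13-TCC in fragments, in KO (red) and WT (blue) mice. Points are mice and black bars the mean ± SD of 3, with a scale for each panel; in total tRNA the KO points lie above the WT points for Gly4-CCC and Gly13-TCC and overlap for Gly5-CCC, and in fragments Gly13-TCC overlaps at 0.316% in KO and 0.304% in WT.

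The 3 rises stayed past the threshold relative to glycine reads alone, at log2 fold changes of 0.34 (Gly4-CCC), 0.71 (Gly5-CCC) and 0.81 (Gly13-TCC), each with an adjusted p of 0.027 in edgeR, where 9.9% of entries were called. All 3 were also called without KO mouse 1 and without WT mouse 3. No glycine entry passed once KO mouse 2 was dropped, or either of WT mice 1 and 2, and 1 passed once KO mouse 3 was dropped. Over all alternatives the log2 fold change was 0.25 to 0.39 for Gly4-CCC, 0.59 to 0.94 for Gly13-TCC and 0.41 to 0.96 for Gly5-CCC, so each kept its direction. The Gly4-CCC call was also lost with no filter (adjusted p = 0.051 in edgeR), and the Gly5-CCC call with TMM scaling without glycine (adjusted p = 0.059). Scarce entries of other families moved the same way in part. Among entries that are not the most read of their family, 6 of 48 outside glycine rose and 4 fell, with a median log2 fold change of 0.15, whereas 0 of 31 most read entries outside glycine rose and 2 fell. The part of that shift in the glycine values was not tested.

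The 3 entries did not pass in the other forms. In ribosome-contained tRNA no glycine entry of 8 tested passed in edgeR, where 3.88% of 103 entries were called, with 1 at an unadjusted p under 0.05, 1 called by DESeq2 and 0 by limma-voom. In fragments no glycine entry of 9 passed, where 12.3% of 81 entries were called, again with 1 unadjusted, 1 by DESeq2 and 0 by limma-voom. Gly4-CCC made up 0.839% ± 0.0574 of fragment reads in KO and 0.839% ± 0.0276 in WT. Gly13-TCC made up 0.0215% ± 0.00462 of ribosome-contained reads in KO and 0.0222% ± 0.00551 in WT.

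The ratio of fragment to total share restates the higher total tRNA share of Gly13-TCC and Gly4-CCC in KO brain, since their shares of all fragment reads overlapped between genotypes. As a part of Gly-TCC fragment reads, Gly13-TCC was higher in KO mice without overlap, at 29.3% to 34.8% against 27.1% to 28.8% in WT mice. As a part of glycine fragment reads it was 2.36% to 2.60% in KO mice and 2.18% to 2.25% in WT mice. Each had an exact permutation p of 0.1, and Gly4-CCC overlapped in both measures. For Gly13-TCC the ratio was 51.1, 38.5 and 31.5 in KO mice, against 93.6, 67.0 and 53.2 in WT mice, and for Gly4-CCC 5.94, 6.46 and 7.20 in KO mice, against 8.71, 8.94 and 7.92 in WT mice. The KO ratios lay under the WT ratios without overlap for these entries, and likewise for Gly12-TCC, Gly1-ACC and Gly10-GCC. How many of all entries did so was not counted. The Gly10-GCC ratios rest on 21 to 22 total tRNA reads in KO mice and 5 to 20 in WT mice. They were apart only by 30.9 in KO mouse 3 against 32.4 in WT mouse 2. In the test of the difference of KO effects between fragments and total tRNA, Gly13-TCC had -0.64 (SE 0.23, adjusted p = 0.085 in edgeR) and Gly4-CCC -0.22 (SE 0.11, adjusted p = 0.19). No glycine entry of 9 passed there, where 8.57% of 105 entries were called, with 1 at an unadjusted p under 0.05, 4 called by DESeq2 and 0 by limma-voom. The share of all entries called by DESeq2 was not computed. For ribosome-contained against total tRNA 0 of 9 passed in edgeR, where 5.93% of 118 entries were called, with 4 unadjusted and 0 by DESeq2 or limma-voom.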

How the data were processed

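The authors deposited 1 table of counts, read numbers per tRNA entry per the file headers, for 18 libraries of 6 mouse brains. AlkB, which removes base methyl groups that stop reverse transcriptase, was used on the RNA per the labels. The submitters' processing notes name Bowtie2. No source used here gives its version, the tRNA reference, the build or the rule for reads matching several entries, so near-identical isodecoders may share reads. PCR copies were not told apart, so limits cover counting error only. A ribosome-contained column headed K3 was taken as KO mouse 3.

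Entries were summed to anticodon families (iMet apart). Entries and families were each tested over the whole table by the quasi-likelihood test of edgeR 4.0.16 (R 4.3.3), after TMM scaling and filterByExpr (minimum count 10). P-values were adjusted by Benjamini-Hochberg, with a threshold of 0.05. The standard error is the log2 fold change over the square root of F. KO and WT were compared over the 6 libraries of a form, and forms over 12 libraries in 4 groups. Shares and ratios were compared by exact permutation, two-sided, with SciPy 1.17.1. How many of all families or entries had genotypes without overlap was not counted. Alternatives were other scalings, no filter, DESeq2 1.42.0, limma-voom (limma 3.58.1), a block and leaving out mice. For alternatives other than glycine reads, the share of all families or entries called was not computed. Tables used pandas 2.3.3 in Python 3.11.15, plots matplotlib 3.10.9. The procedure was tested on simulated data for KO against WT within a form, at a set spread and with changes larger than those called here. The set spread was below that fitted for entries in every form and for families in ribosome-contained tRNA. In ribosome-contained tRNA the fitted coefficient of variation was 0.0923 for families and 0.153 for entries, and data of that spread were not simulated. Smaller changes and the comparisons of forms were not simulated.

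All 4 families and all entries with a mean of at least 100 reads in a form are given with values, the others mainly by range. Members and lists were chosen with earlier results of these data known. In total tRNA, KO and WT libraries of the same number deviated together (correlations of 0.81, 0.46 and 0.66), so the numbers may pair them there, although the labels state no shared origin. The main fits and the exact permutation tests of KO against WT did not use that pairing. It entered only as the block among the alternatives. The library forms pair by mouse, per the labels.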

Additional observations from a re-analysis of the deposited data

Results flagged for a closer look

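The KO effect on glycine families differed between fragments and total tRNA by the interaction term in edgeR: -0.40 on the log2 scale for Gly-ACC, -0.28 for Gly-CCC and -0.25 for Gly-TCC, around a median of -0.19 over all families, of which 22.4% were called lower. With the mouse as a block only Gly-ACC was called (adjusted p = 0.011 in edgeR, against 0.061 for Gly-CCC and 0.08 for Gly-TCC), and none of the 3 was called with TMM within library type or TMM without glycine. The fragment shares of Gly-CCC and Gly-TCC overlapped between KO and WT, and those of Gly-ACC did not. Counted as the entry Gly1-ACC, the difference was -0.15 (SE 0.12, adjusted p = 0.45 in edgeR) and did not pass. The median over all entries was 0.06, and Gly1-ACC lay at -0.21 from it, as Gly-ACC did from the median of families.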

How the results depend on the processing

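Of 1295 recomputed values of single families or entries, 73 lost a call with the sign kept, 39 gained one and 8 called values changed sign. Some of those 8 also lost their call. The rest kept their side of the threshold, though 61 uncalled values changed sign, 24 of them by more than the standard error. None of 259 shares and ratios moved beyond the spread between mice. Where a mouse was left out, that check could not fail. In groups of this size, dropping a mouse always shifts the group mean by less than the spread. No robustness of the shares and ratios is read from it. The causes of the changes in calls and signs were not tested, except that scaling to glycine reads turns a value into a share of glycine.

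Counts of glycine families past the threshold depended on the setting. Except with glycine reads, the share of all families or entries called was not computed for these settings. Whether the counts moved with the whole table was thus not tested. In ribosome-contained tRNA the 2 KO calls became 0 with glycine reads as the scale, 1 with no filter, 1 with the replicate number as a block, and 0 to 2 when a mouse was left out. In fragments the 1 KO call became 0 with DESeq2 size factors, glycine reads, TMM without glycine, no filter or the replicate block, and was 0 to 1 when a mouse was left out. For the KO effect in ribosome-contained minus total tRNA the 0 became 2 with DESeq2 size factors, total reads, TMM without glycine, TMM within library type or DESeq2, and was 0 to 2 when a mouse was left out. For fragments minus total tRNA the 3 became 1 with total reads, no filter or the mouse as a replicate block, 0 with glycine reads, TMM without glycine or TMM within library type, and was 1 to 4 when a mouse was left out. For WT ribosome-contained against total tRNA the 4 became 2 with glycine reads.

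Counts of glycine entries moved as follows. The 3 in KO total tRNA were 0 to 3 when a mouse was left out. In KO ribosome-contained tRNA the 0 became 1 with total reads or DESeq2, and was 0 to 1 when a mouse was left out. In KO fragments it became 1 with total reads, TMM without glycine or DESeq2, and was 0 to 1. For ribosome-contained minus total tRNA it became 1 with total reads and was 0 to 1. For fragments minus total tRNA it became 2 with DESeq2 size factors or total reads, 4 with DESeq2, and was 0 to 2. For WT ribosome-contained against total tRNA the 9 became 5 with glycine reads.

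Signs turned in WT comparisons of forms. With glycine reads, ribosome-contained against total tRNA gave -0.59 for Gly-CCC, -0.14 for Gly-GCC and -0.14 for Gly6-GCC, and fragments against total tRNA gave -0.20 for Gly-GCC, -1.58 for Gly-TCC and -0.22 for Gly6-GCC. Gly3-CCC in ribosome-contained tRNA gave 0.24 with total reads and 0.12 with TMM within library type. The median of all families in WT fragments against total tRNA was -0.46, and -0.14 with DESeq2 size factors, -0.73 with total reads and -0.77 with TMM within library type. For the KO effect in ribosome-contained minus total tRNA it was -0.02, and -0.18 with TMM without glycine.

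In total tRNA the replicate numbers may pair KO with WT, by correlations in these data and not by the labels. The main fits had no block, and adding it there changed no glycine call. In the other forms the correlations of same-numbered libraries were 0.34 or less, and the block values above are of shared numbers only. Fragment libraries held the fewest reads, and for Gly2-ACC, at 0 there, no change was detectable at this depth.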
